A study of Mus musculus with 18 samples.

Results

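The 35 genes described here encode proteins of the lysosome: soluble hydrolases and their helper proteins, membrane proteins, channels and transporters, and TFEB and TFE3, a pair of transcription factors. They were chosen by name from a list that leaves out the cathepsins. All 35 were found among 34921 complete gene entries of the deposited table, and all 35 were among the 14016 genes tested. The study sequenced total RNA from small punches of brain tissue of male C57BL/6 mice, an inbred strain, at 9 weeks of age, in 18 libraries. Stroke was made by photothrombosis, in which a light-sensitive dye, rose bengal (100 mg/kg, given 5 min before), clots the vessels under a spot of green light (532 nm, 40 mW, 15 min, from a fiber 2 mm wide) placed 2 mm to the right of the skull point called bregma. There are 6 groups of 3 libraries. They are the lesioned right side at 4 h (libraries 2, 3 and 6), 1 day (1, 3 and 4), 3 days (1, 2 and 8) and 10 days (1, 2 and 5), the matching right side of sham mice (1, 2 and 3), and left-side punches (1, 3 and 5). The punches followed the lesion seen on magnetic resonance images and are bulk tissue, not sorted cells. One protocol text covers all samples, and whether sham mice received dye or light is not stated. The left-side group is described both as coming from mice with stroke and as sham, with no time point, and is called contralateral left here. Its sample titles have the same prefix as those of sham, followed by a number and a side letter, and numbers 1 and 3 occur in both groups. Whether it shares mice with another group is not stated, and the main fit treats all libraries as independent. The sham group and each stroke group hold 3 animals per the protocol, and the p-values below measure the spread between these mice and their libraries.

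Lysosomes are acidic compartments in which cells break down material they have engulfed or made themselves. Most lysosomal enzymes carry a mannose 6-phosphate tag that sorts them to the lysosome, and the loss of a single enzyme or transporter causes a lysosomal storage disease, often with brain involvement. Brain lesions are cleared of dead cells and myelin by microglia and by macrophages that enter from the blood, both of which are rich in lysosomes. TFEB and TFE3 move to the nucleus when lysosomes are under load or nutrients are short. There they bind a short element, the CLEAR element, found near the start of many lysosomal genes, so their activity is set largely by location and phosphorylation rather than by the amount of their RNA.

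The element was searched in RefSeq promoter windows of build GRCm38.p6, from 250 bases before to 50 bases after each annotated start, which were found for 32 of the 35 genes (39 promoters; Galns, Asah1 and Npc1 had no entry). The letters TCACGTG, or their reverse complement CACGTGA, were in 9 of 32 genes (28.1%) against 4.29% of 27025 genes with an entry. The symmetric 8-letter core TCACGTGA, which contains them on both strands, was in 3 of the 32 (9.38%) against 1.12%, and the full 10-letter element, the same core with G before and C after it, was in 1 (3.12%, Cln3) against 0.37%. The plain E-box CACGTG, contained in all of these, was in the same number of members, 9, against 8.09% of all genes. The windows of 6 genes are shown 5′ to 3′ so that the element can be read beside the values. They were taken by length of match and, among the 5 genes that tie at 8 letters, by their fold change at 3 days. The letters of each gene's longest match are in capitals. Cln3, Gla and Mcoln1 each have another, shorter match, which is not marked.
Cln3 (chr7:126583325-126583384, minus strand): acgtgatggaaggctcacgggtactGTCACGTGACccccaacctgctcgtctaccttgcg
Gla (chrX:134601168-134601226, minus strand): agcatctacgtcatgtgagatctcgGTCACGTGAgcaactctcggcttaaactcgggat
Mcoln1 (chr8:3500448-3500506, plus strand): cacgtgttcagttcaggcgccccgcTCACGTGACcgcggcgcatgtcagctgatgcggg
Lgmn (chr12:102439110-102439169, minus strand): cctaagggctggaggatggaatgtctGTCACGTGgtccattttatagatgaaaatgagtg
Naglu (chr11:101069993-101070052, plus strand): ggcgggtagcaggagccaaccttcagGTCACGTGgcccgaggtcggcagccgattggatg
Glb1 (chr9:114401002-114401061, plus strand): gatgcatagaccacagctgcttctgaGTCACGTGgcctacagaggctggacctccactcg
The matches begin 123, 196, 46, 51, 75 and 50 bases before an annotated start in the same order. For Cln3 and Lgmn that is a second start inside the gene, and the window at the gene's 5′ end has no match. The other 3 genes with a match are Lamp1 and Arsa, also at 8 letters, and Gaa. Lamp1 has several matches in its window.

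The values are in FPKM, which counts fragments per kilobase of a transcript relative to the library's total. Fold changes are differences of log2(FPKM + 1) in 1 limma fit of all 18 libraries, a scale on which the changes of weakly expressed genes come out too small, and a gene was called at a Benjamini-Hochberg adjusted p under 0.05 over all genes tested. Read totals are not given in the sources used here. If the most frequent low value among genes with 1 exon stands for 1 fragment, the libraries hold roughly 12400000 to 29900000 fragments, the fewest in 10 day library 5. Only 35.4% to 40.2% of low values lay within 0.1 of a whole multiple of that step, so no counts were derived. Between 24.4% and 44.6% of all FPKM fell on mitochondrially encoded genes, with 10 day library 5 at the top, and it also had the lowest mean correlation with its group (0.933). Contralateral left 5 came next (0.941). Markers of the labelled tissue were present in every library: 10 neuronal markers summed to between 934 and 1360 FPKM. Markers of choroid plexus, a tissue next to the ventricles, ranged from 2.00 to 639 FPKM.

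The lysosomal genes rose late. None of the 35 was called at 4 h or 1 day, 14 rose at 3 days and 20 at 10 days, and none fell at any time. At 3 days 40% of the members were called against 7.36% of all genes tested (6.91% higher, 0.457% lower), and at 10 days 57.1% against 7.13% (6.21% higher, 0.92% lower). The members were chosen with earlier results of these data known, so this contrast is a description and not a test. The median log2 fold change of the members was 0.07 at 4 h, 0.07 at 1 day, 0.41 at 3 days and 0.64 at 10 days, while that of all genes tested was 0.01, 0.03, 0.08 and -0.07. In fits of only the 2 groups compared the counts were 21 at 3 days and 14 at 10 days, so no order of the 2 times is read from them. The share of all genes called in those fits is not given here, so the change in counts is not read as particular to the members. Of the members, 13 rose at both late times, 7 at 10 days without a call at 3 days, 1 (Manba) at 3 days without a call at 10 days, and 14 were called in no comparison. All 4 times share the sham libraries and are not independent.

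**Figure D1:**
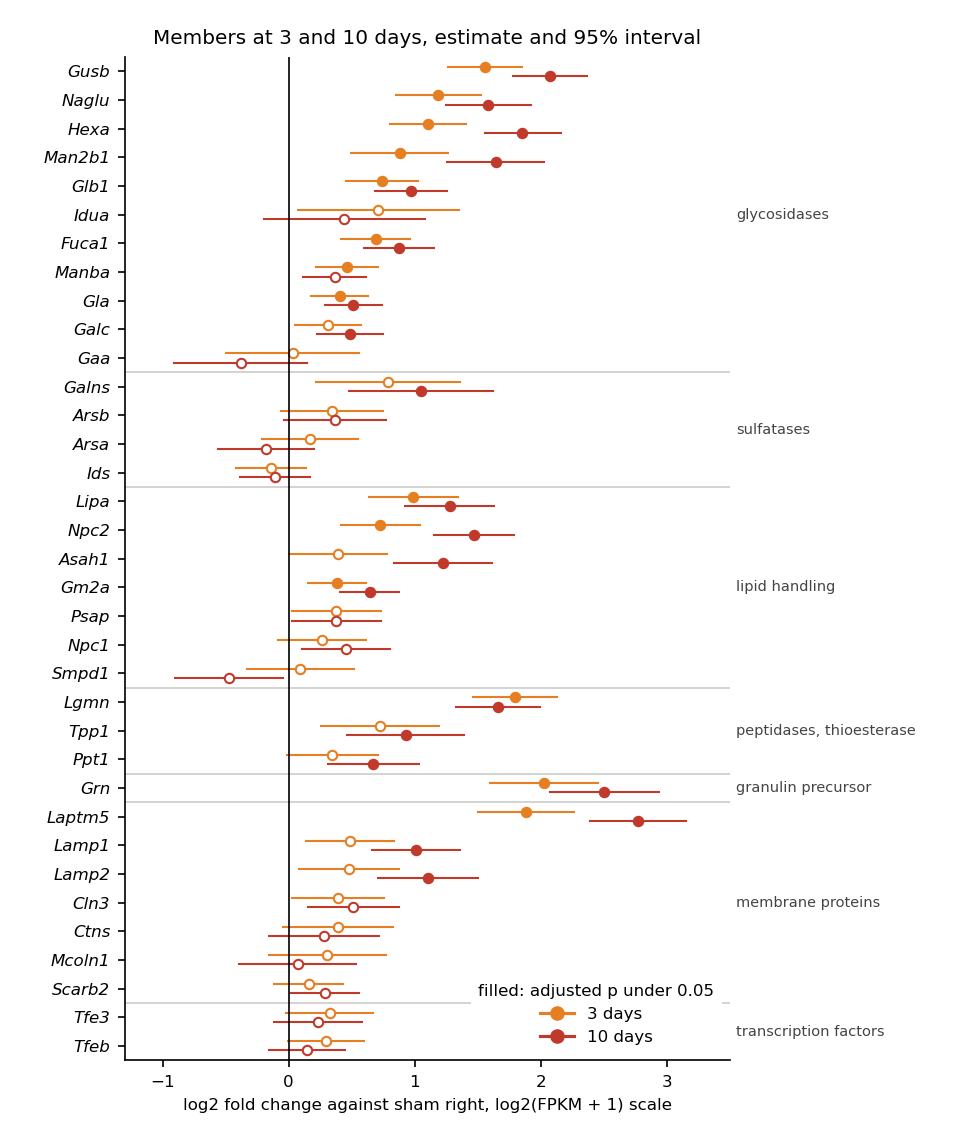
Log2 fold change of each member against sham right at 3 days (orange) and 10 days (red) on the log2(FPKM + 1) scale, with 95% intervals from limma (3 libraries per group); filled points have an adjusted p under 0.05. All filled points lie above 0, with Laptm5 farthest to the right at 10 days (2.77), and Gaa, Ids, Arsa and both transcription factors have open points at both times.

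The number of members whose libraries did not overlap sham gives a view without a model. At 3 days all 3 stroke values of 30 members lay above all 3 sham values, which held for 27.2% of all genes tested, and none lay below (9.67%). At 10 days 24 members lay above (13.8% of all genes) and 2 below (13.2%), Smpd1 and Gaa. At 4 h 5 lay above and 3 below, against 18.8% and 17.2% of all genes, and at 1 day 5 above and 1 below, against 14.3% and 8.50%. The group with the highest mean was 10 days for 24 members and 3 days for 8.

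The summed FPKM of the 35 genes shows the size of the late rise. It was 850.4, 835 and 835 in sham right 1, 2 and 3, between 826 and 925 in the 6 libraries of 4 h and 1 day, 1287, 1124 and 1304 at 3 days, and 1435, 1293 and 1558 at 10 days. All late libraries were above all earlier ones. In sham, Psap alone made up 40.4% to 42.6% of this sum, and at 10 days 27.5% to 34.2%. Psap, Lamp1, Ids and Lgmn together made up 67.8% to 69.2% in sham and 61.3% to 61.9% at 10 days, so genes of lower abundance took a larger share of the sum.

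**Figure D2:**
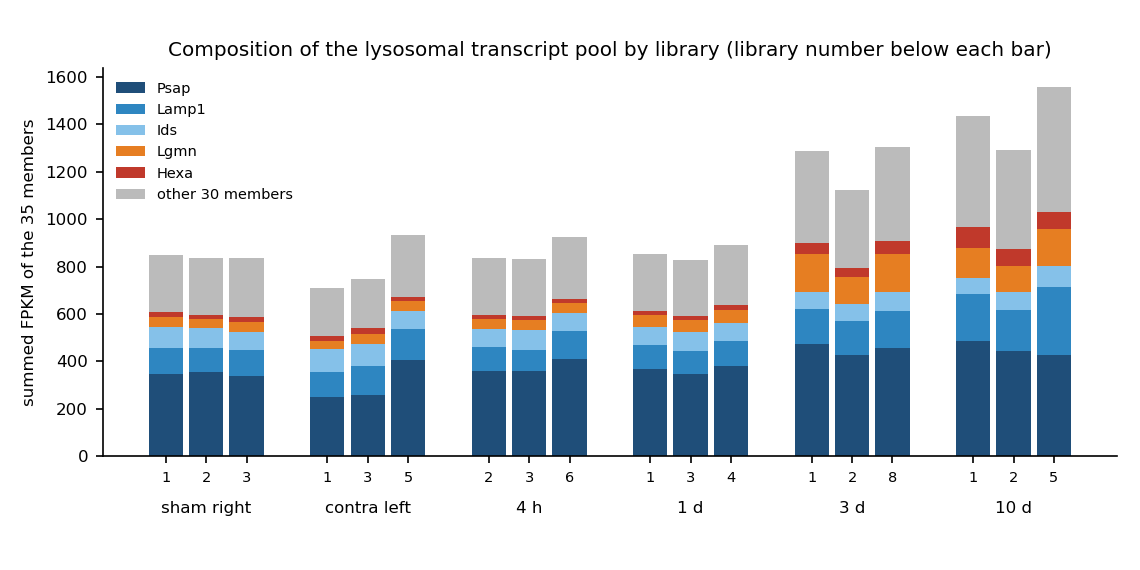
Summed FPKM of the 35 members in each library, stacked by gene: Psap, Lamp1, Ids, Lgmn, Hexa and the other 30. The bars of 3 and 10 days stand at 1124 or more, all others at 931 or less, and Psap, 40.4% to 42.6% of the bar in sham, is 27.5% to 34.2% of it at 10 days.

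Of the 11 glycosidases, enzymes that trim sugar chains from glycolipids, glycoproteins and glycosaminoglycans, 8 rose at 3 days and 8 at 10 days. Hexa, the alpha subunit of beta-hexosaminidase, which removes N-acetylgalactosamine from the ganglioside GM2 (chromosome 9, 59539540 to 59565109 in GRCm38, plus strand), was at 21.2, 19.6 and 21.2 FPKM in sham right. It was at 18.6, 16.4 and 16.9 at 4 h, at 17.7, 15.8 and 18.2 at 1 day, at 48.2, 36.5 and 54.0 at 3 days and at 87.0, 73.2 and 72.6 at 10 days. Contralateral left stood at 19.6, 23.5 and 18.3. The 4 h values and the 1 day values are all below sham, those of 3 days are all above it, and those of 10 days are above 3 days without overlap. The log2 fold change was 1.11 ± 0.14 at 3 days (SE, limma adjusted p = 6.59e-05) and 1.86 ± 0.14 at 10 days (limma adjusted p = 2.38e-07). In the annotation 12.8% of the exon length of Hexa is shared with Tmem202 on the opposite strand, and strand handling of the reads is not given.

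Gusb, beta-glucuronidase, which acts on glycosaminoglycans (chromosome 5, 129989011 to 130003049, minus strand), stood at 2.69, 2.14 and 2.96 FPKM in sham, 2.50, 2.48 and 2.20 at 4 h and 3.18, 3.595 and 3.82 at 1 day. It reached 10.6, 7.87 and 10.3 at 3 days and 15.96, 12.2 and 14.4 at 10 days, with 3.06, 3.28 and 2.48 in contralateral left. Gusb was the member with the largest fold change among the glycosidases at both late times, 1.56 ± 0.14 (limma adjusted p = 2.11e-06) and 2.08 ± 0.14 (limma adjusted p = 6.84e-08). Its 1 day values already lay above all sham values, but the difference of 0.34 was not called.

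Naglu, an enzyme of heparan sulfate breakdown, was at 1.86, 1.98 and 1.35 FPKM in sham, at 5.85, 4.42 and 5.39 at 3 days and at 8.86, 7.92 and 5.17 at 10 days, rising by 1.19 ± 0.16 and 1.59 ± 0.16. Man2b1, the lysosomal alpha-mannosidase, was at 2.66, 2.83 and 2.82 in sham, at 5.88, 5.04 and 7.07 at 3 days and at 11.5, 8.52 and 12.8 at 10 days (0.88 ± 0.18 and 1.64 ± 0.18). Glb1, the lysosomal beta-galactosidase, had 4.68, 4.70 and 4.43 FPKM in sham, 8.38, 8.05 and 8.68 at 3 days and 10.3, 8.68 and 11.1 at 10 days (0.74 ± 0.13 and 0.97 ± 0.13). In these 3 genes no late library overlapped sham. Fuca1, which removes fucose, rose by 0.69 ± 0.13 and 0.87 ± 0.13, and Gla, the alpha-galactosidase missing in Fabry disease, by 0.41 ± 0.11 and 0.52 ± 0.11. Manba, the beta-mannosidase, rose at 3 days (0.47 ± 0.12, limma adjusted p = 0.0185), and Galc, which cleaves the myelin lipid galactosylceramide, at 10 days (0.49 ± 0.12, limma adjusted p = 0.0212).

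Idua and Gaa were the glycosidases without a call. Idua, which acts on dermatan and heparan sulfate, was scattered, with 1.69, 1.24 and 1.20 FPKM in sham, 2.03, 3.00 and 3.81 at 3 days and 3.23, 0.959 and 3.00 at 10 days. It was called higher at 3 days in a fit of only sham and 3 days. Gaa, the acid alpha-glucosidase that degrades glycogen, held 27.6, 28.0 and 27.9 FPKM in sham and 27.7, 27.5 and 30.1 at 3 days. At 10 days it was at 26.4, 22.2 and 16, below sham in all 3 libraries, with a log2 difference of -0.38 (95% interval -0.91 to 0.15, limma adjusted p = 0.42).

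Of the 4 sulfatases, which remove sulfate groups from glycosaminoglycans and sulfolipids, none was called at 3 days and Galns alone rose at 10 days. Galns, an enzyme of keratan and chondroitin sulfate breakdown, was at 1.00, 1.39 and 1.499 FPKM in sham, 3.61, 2.18 and 3.24 at 3 days and 3.70, 2.23 and 6.06 at 10 days (1.05 ± 0.27, limma adjusted p = 0.0214). All late Galns values exceed sham, and the 10 day libraries differ widely. Ids, the iduronate sulfatase and one of the most abundant members, was at 89.4, 82.1 and 77.0 FPKM in sham, 71.5, 74.9 and 78.7 at 3 days and 67.6, 74.5 and 89.6 at 10 days. Ids is the single member with a fold change below 0 at 3 days (-0.14, 95% interval -0.42 to 0.14). Arsa, which desulfates the myelin lipid sulfatide, gave 0.17 and -0.18, and Arsb, which acts on dermatan sulfate, 0.34 and 0.37, with no call. Arsa and Arsb share 18.8% and up to 32.3% of their exon length with noncoding genes on the opposite strand.

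Among the 7 genes of lysosomal lipid breakdown and transfer, 3 rose at 3 days and 4 at 10 days. Npc2, a soluble protein that hands cholesterol to NPC1 at the lysosomal membrane (chromosome 12, 84754562 to 84773152, minus strand), was at 13.8, 11.3 and 14.6 FPKM in sham, 11.5, 9.14 and 8.87 at 4 h and 11.2, 11.7 and 10.7 at 1 day. It was at 24.9, 20.6 and 22.2 at 3 days and at 40.0, 37.2 and 37.6 at 10 days, with 14.5, 15.5 and 10.05 in contralateral left. The 10 day values lie above those of 3 days, which lie above every other library. Npc2 rose by 0.73 ± 0.15 (limma adjusted p = 0.00429) and then 1.47 ± 0.15 (limma adjusted p = 4.03e-06) relative to sham. Its partner Npc1, the membrane cholesterol transporter, was at 4.04, 4.197 and 4.58 in sham, 5.34, 5.22 and 5.42 at 3 days and 6.55, 5.37 and 6.86 at 10 days. All late Npc1 values exceeded sham, but the differences of 0.26 and 0.46 were not called (limma adjusted p = 0.512 and 0.129).

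Lipa, the acid lipase that releases cholesterol from its esters, stood at 5.35, 5.08 and 5.65 FPKM in sham, 13.3, 8.58 and 13.7 at 3 days and 17.2, 14.1 and 12.3 at 10 days, a rise of 0.99 ± 0.17 and 1.28 ± 0.17. Gm2a, the activator that presents GM2 to hexosaminidase, rose by 0.38 ± 0.11 and 0.64 ± 0.11. Asah1, acid ceramidase, kept to a range of 16.7 to 26.5 FPKM through 3 days in the right-side libraries and was at 34.0, 40.0 and 58.8 at 10 days. Asah1 thus rose at 10 days (1.23 ± 0.18, limma adjusted p = 2.24e-04) and was not called at 3 days (0.39). Smpd1, acid sphingomyelinase, makes the ceramide that Asah1 degrades. It was at 21.7, 21.6 and 19.1 FPKM in sham, 23.1, 23.1 and 20.7 at 3 days and 19.1, 18.9 and 8.72 at 10 days. The 10 day difference of -0.47 (95% interval -0.90 to -0.05, limma adjusted p = 0.21) rests on library 5, and without it the value is -0.13.

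Psap, the precursor of the saposins, which lift sphingolipids out of membranes for their enzymes (chromosome 10, 60277627 to 60302597, plus strand), was the most abundant member. It was at 348, 356 and 337 FPKM in sham, 359, 357 and 409 at 4 h, 368, 346 and 380 at 1 day, 472, 427 and 456 at 3 days and 486, 442 and 428 at 10 days. The late values all lie above sham, while contralateral left stood at 251, 258 and 406. Both late differences were 0.38 ± 0.17 and neither was called (limma adjusted p = 0.262 and 0.227). Without contralateral left 5 and 10 day 5, Psap was called higher at both late times. In a fit of only the 2 groups compared it was called higher at 3 days and not at 10 days.

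All 3 peptidases and thioesterases were higher by 10 days. Lgmn, legumain, an asparagine-specific protease that also activates cathepsins (chromosome 12, 102394084 to 102439813, minus strand), was at 41.1, 38.6 and 41.5 FPKM in sham, 43.9, 41.0 and 43.0 at 4 h and 50.3, 50.1 and 54.7 at 1 day. It reached 159, 113 and 161 at 3 days and 129.7, 108 and 155 at 10 days, with 33.6, 41.0 and 43.2 in contralateral left. The 1 day values are above all sham values without a call (0.35), and the ranges of 3 and 10 days overlap. Lgmn rose by 1.80 ± 0.16 at 3 days (limma adjusted p = 1.97e-06) and 1.66 ± 0.16 at 10 days (limma adjusted p = 2.01e-06). It is the one called member besides Manba whose mean was highest at 3 days. Tpp1, a tripeptidyl peptidase, was at 7.90, 8.05 and 8.12 in sham, 15.1, 11.2 and 15.9 at 3 days and 15.0, 12.3 and 22.7 at 10 days. Tpp1 missed the threshold at 3 days (0.73 ± 0.22, limma adjusted p = 0.0589) and rose at 10 days (0.93 ± 0.22, limma adjusted p = 0.0129). Ppt1, which removes palmitate from proteins, was at 32.2, 32.5 and 31.9 at 3 days against 24.6, 25.6 and 25.1 in sham, a difference of 0.35 without a call. At 10 days it was at 36.7, 32.7 and 55.6 (0.67 ± 0.17, limma adjusted p = 0.0203).

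Grn encodes progranulin, a secreted growth factor precursor that is carried to lysosomes, there cut into granulins, and made by microglia and neurons (chromosome 11, 102430315 to 102437048, plus strand). It was at 6.66, 5.65 and 6.75 FPKM in sham, 6.26, 7.21 and 8.49 at 4 h and 6.00, 6.25 and 8.16 at 1 day. It rose to 33.5, 19.8 and 36.2 at 3 days and 41.1, 34.7 and 47.0 at 10 days, with 5.11, 5.13 and 7.35 in contralateral left. No early library overlaps a late one. The log2 fold changes of 2.03 ± 0.20 (limma adjusted p = 6.26e-06) and 2.50 ± 0.20 (limma adjusted p = 3.99e-07) are the largest and the second largest of the 35 at 3 and 10 days.

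Of the 7 membrane proteins, channels and transporters, 1 rose at 3 days and 3 at 10 days. Laptm5, a lysosomal membrane protein of blood-derived and microglial cells (chromosome 4, 130913125 to 130936141, plus strand), was at 4.73, 4.34 and 4.98 FPKM in sham, 5.29, 4.49 and 5.40 at 4 h and 5.33, 5.51 and 6.18 at 1 day. It was at 20.8, 15.7 and 24.2 at 3 days and 36.4, 28.6 and 51.9 at 10 days, with 4.69, 5.24 and 4.56 in contralateral left. Each time point from 1 day on lies above sham, and 10 days lies above 3 days without overlap. Laptm5 rose by 1.88 ± 0.18 (limma adjusted p = 4.03e-06) and 2.77 ± 0.18 (limma adjusted p = 6.14e-08), the largest fold change of the list at 10 days.

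Lamp1 and Lamp2, the heavily glycosylated proteins that make up much of the lysosomal membrane and are found in nearly all cells, rose at 10 days. Lamp1 (chromosome 8, 13159161 to 13175338, plus strand) was at 107, 101 and 110.4 FPKM in sham, 149, 141 and 158 at 3 days and 196, 177 and 284 at 10 days. Lamp2 (chromosome X, 38401357 to 38456454, minus strand) was at 11.98, 11.7 and 12.7 in sham, 9.85, 10.4 and 8.45 at 4 h, 18.2, 15.6 and 18.3 at 3 days and 21.6, 22.5 and 41.5 at 10 days. In both genes all 3 day and 10 day values exceed sham, and 10 day library 5 is far above its group. The 3 day differences of 0.49 and 0.48 were not called (limma adjusted p = 0.0985 and 0.179), though both were in a fit of only these 2 groups and in one without contralateral left 5 and 10 day 5. The 10 day rises were 1.01 ± 0.16 and 1.11 ± 0.19 (limma adjusted p = 5.09e-04 and 7.42e-04).

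**Figure D3:**
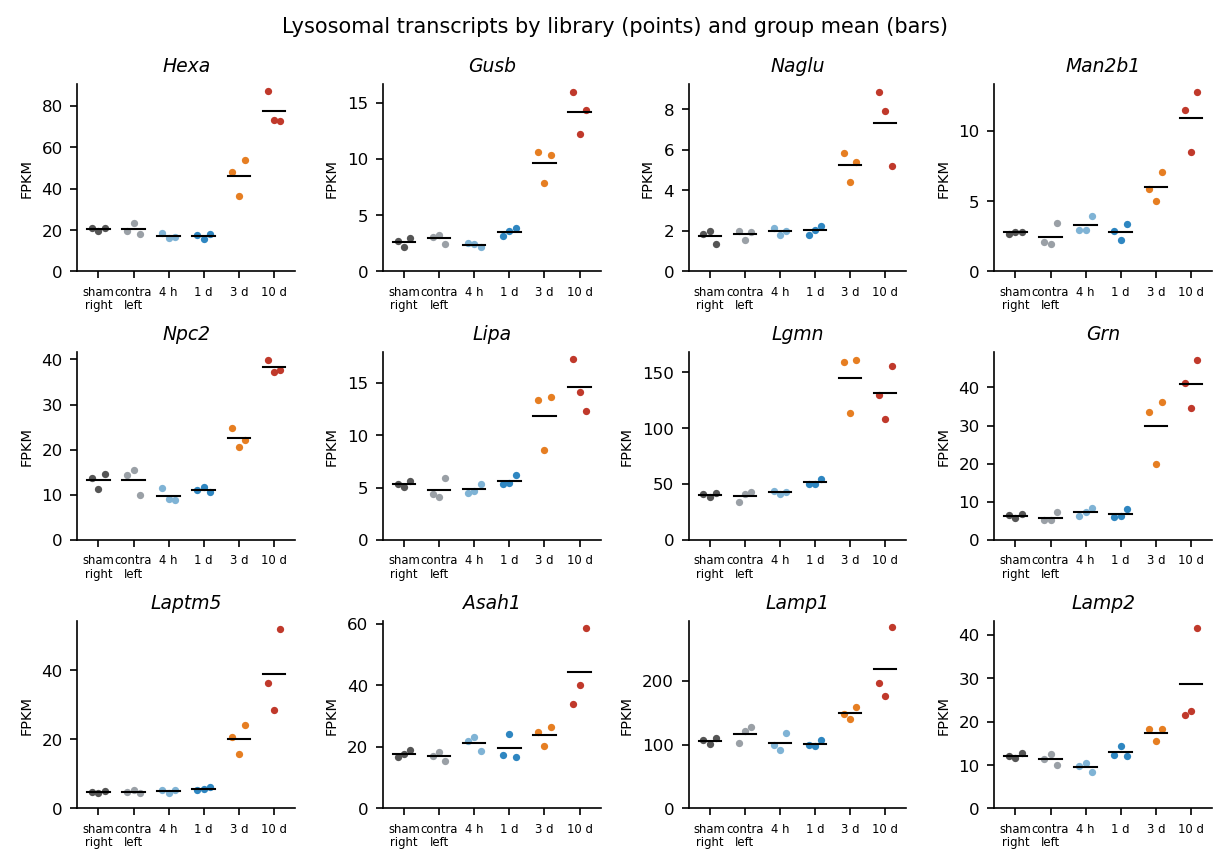
FPKM of 12 members that rose, by library (points) and group mean (bars), on linear axes from 0. The points of 4 h and 1 day lie near sham, and Lgmn is level between 3 and 10 days. Library 5 of 10 days (right-hand point) is the highest of its group for Man2b1, Lgmn, Grn, Laptm5, Asah1, Lamp1 and Lamp2. It is the lowest for Hexa, Naglu and Lipa.

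The other membrane proteins were not called at any time. Scarb2, the receptor that carries glucocerebrosidase to lysosomes, gave 0.16 at 3 days and 0.29 at 10 days. Cln3, a protein lost in a juvenile storage disease, was low (0.534, 1.03 and 0.805 FPKM in sham) and gave 0.39 and 0.51, with all late values above sham. Ctns, the cystine exporter, gave 0.39 and 0.28, and Mcoln1, the calcium channel through which lysosomes activate TFEB, gave 0.31 and 0.07.

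TFEB and TFE3 were not called at any time. Tfeb was at 1.14, 0.802 and 1.09 FPKM in sham, 1.41, 1.41 and 1.56 at 3 days and 1.63, 1.35 and 0.754 at 10 days. Tfe3 was at 2.47, 2.03 and 1.99 in sham, 2.77, 2.48 and 3.73 at 3 days and 3.26, 2.57 and 2.37 at 10 days. At 3 days both sets of values lie just above sham. The differences at 3 days were 0.30 (95% interval -0.00 to 0.60) and 0.33 (-0.02 to 0.67), with a limma adjusted p of 0.317 and 0.348, and at 10 days 0.14 and 0.23. These intervals include both no difference and a difference as large as that of Gla.

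**Figure D4:**
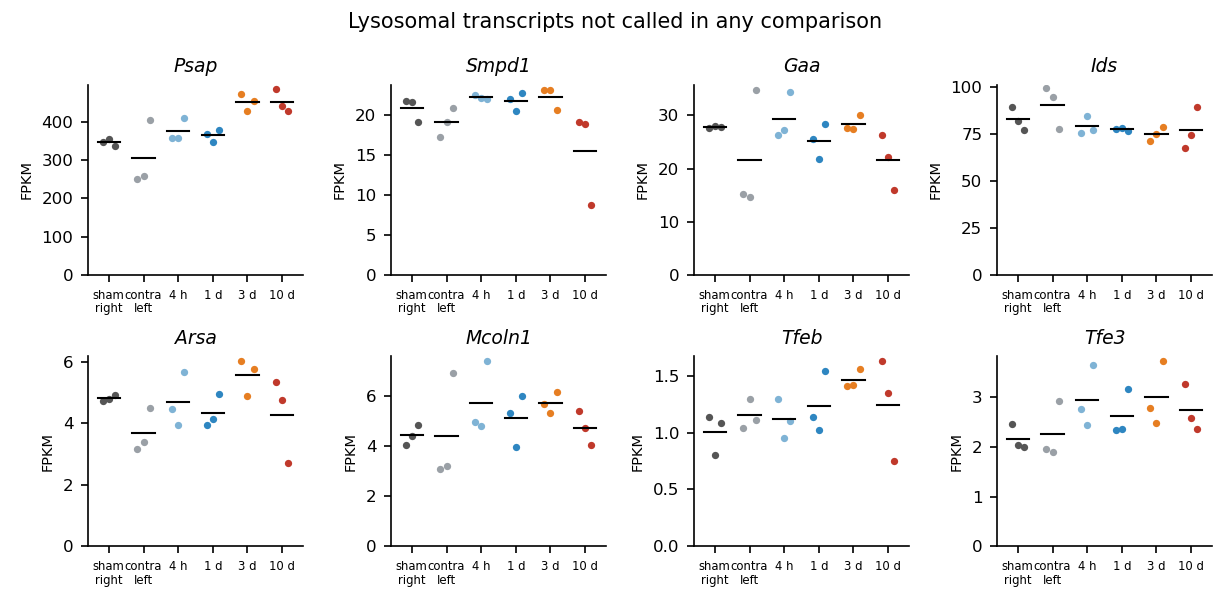
FPKM of 8 members called in no comparison, by library (points) and group mean (bars), on linear axes from 0. Ids and Gaa stay near their sham level at 3 days. Library 5 of 10 days (right-hand point) is the lowest of its group for Psap, Smpd1, Gaa, Arsa, Mcoln1, Tfeb and Tfe3, and the highest for Ids.

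Members with and without TCACGTG in their promoter window were counted side by side, with no test. Of the 9 with it, 4 rose at 3 days and 5 at 10 days, with median fold changes of 0.41 and 0.52. Of the 23 without it, 10 rose at 3 days and 13 at 10 days, with medians of 0.47 and 0.64. Lgmn and Naglu were among those that rose most, and their windows were printed above partly for that reason. Cln3 and Mcoln1, with the longest matches apart from Gla, were not called. Grn, Laptm5, Gusb, Hexa, Man2b1 and Npc2, which also rose, have no match in these windows, which says nothing about elements elsewhere.

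Other lysosomal genes were taken from lists of known function. Their counts stand against 7.36% of all genes tested called at 3 days and 7.13% at 10 days. Of 26 further hydrolases and helper proteins 7 rose at 3 days and 9 at 10 days, with none lower and medians of 0.35 and 0.25. Rnaset2b, a lysosomal ribonuclease, rose by 1.00 ± 0.17 and 1.47 ± 0.17, and Dnase2a, the acid nuclease that degrades engulfed DNA, by 0.93 ± 0.17 and 0.98 ± 0.17. Of 21 further membrane proteins 3 rose at 3 days and 4 at 10 days, led by Cd68, a glycoprotein of phagocyte lysosomes (3.05 ± 0.29 and 3.87 ± 0.29), with medians of 0.16 and 0.07. Of 19 subunits and partners of the proton pump that acidifies lysosomes, 1 rose at 3 days (5.26%, below the share of all genes) and 3 at 10 days (15.8%), with medians of 0.03 and -0.11. Those were Tcirg1, the a3 subunit (1.32 ± 0.21 and 1.54 ± 0.21), and at 10 days also Atp6v0d2 (2.01 ± 0.36, named after its values were seen) and Atp6v0e (0.80 ± 0.16). None of 16 regulators of TFEB and of the nutrient-sensing kinase mTORC1 was called at either time (limma, medians 0.08 and -0.19).

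Cell type marker lists differed in their course. The sums for microglia and phagocytes in all libraries of 3 and 10 days lay above those of all other libraries. Median sums of astrocyte (920 and 842) and endothelial markers (161 and 145) were also highest at these times. Their 10 day libraries overlapped other groups. The summed FPKM of 10 homeostatic microglia markers, all 10 above 1 FPKM in at least 1 library, was 63.4 to 84.0 in sham, 42.1 to 54.3 at 4 h, 70.6 to 81.6 at 1 day, 177 to 244.5 at 3 days and 233 to 268 at 10 days. The sum of 10 activated phagocyte markers was 40.0 to 55.9 in sham, 34.95 to 59.6 at 4 h, 69.2 to 102 at 1 day, 332 to 673 at 3 days and 788 to 2904 at 10 days, with 2904 in library 5 and 978 in the next highest. Single genes weigh heavily in these sums. Spp1 alone was at 462.5, 208 and 425 FPKM at 3 days and 501.5, 431.5 and 2468 at 10 days. In the microglia list Fcrls was at 89.1, 71.3 and 102 at 3 days and 98.8, 82.0 and 69.4 at 10 days. Of the first list 4 genes rose at 3 days and 5 at 10 days, and of the second 9 and 10, against 7.36% and 7.13% of all genes called. Earlier, when no member was called, 1 of the second list (Cd14) was higher at 4 h and 5 at 1 day. Of the first list 2 were lower at 4 h and 1 was higher at 1 day. The share of all genes called was 2.18% at 4 h and 1.18% at 1 day. Of 8 neutrophil markers 5 stayed under 1 FPKM in every library, and the sum was at most 27.4, in a 1 day library. Neuronal markers summed to 1127 to 1224 in sham, 1031 to 1335 at 3 days and 1074 to 1162 at 10 days, and none of the 10 was called at 3 or 10 days. Astrocyte markers summed to 609 to 677 in sham, 861 to 1087 at 3 days and 697 to 848 at 10 days, and 2 and 1 of 10 rose. Oligodendrocyte markers summed to 942 to 1372 in sham, 827 to 1191 at 3 days and 999 to 1170 at 10 days. Of these 10, 1 was higher at 3 days and none at 10 days. Endothelial markers summed to 132 to 142 in sham, 60.7 to 86.7 at 4 h, 157 to 161 at 3 days and 116 to 162 at 10 days. Of these 10, 1 was higher at 3 days, against 6.91% of all genes tested, and none at 10 days. At 4 h 4 endothelial, 2 oligodendrocyte and 1 astrocyte marker were lower, against 0.863% of all genes. At 1 day 1 endothelial and 1 oligodendrocyte marker were lower (0.278% of all genes) and 1 astrocyte marker was higher (0.899%). The 8 choroid plexus markers summed to 149 to 275 in sham, 3.83 to 225 at 3 days and 412 to 639 at 10 days, so that all 10 day libraries were above all sham and 3 day libraries, and none of the 7 tested was called. The part of these cells in the rise of the members was not tested. In bulk tissue, more cells of a type and more RNA per cell cannot be told apart.

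**Figure D5:**
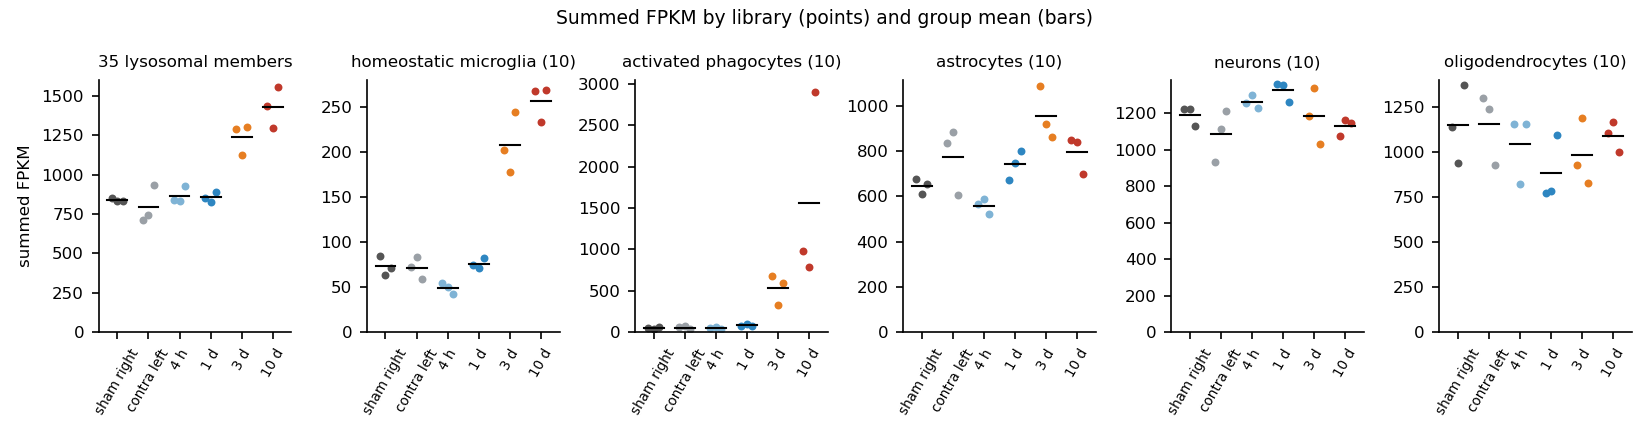
Summed FPKM of the 35 members and of 5 lists of 10 cell type markers, by library (points) and group mean (bars), on linear axes from 0. The member sum and both microglia and phagocyte sums of all 3 and 10 day libraries lie above all others. Astrocyte means are also highest at these times, but the 10 day points overlap other groups. Neuronal and oligodendrocyte sums of those times lie within or near the range of the earlier libraries.

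The early comparisons held no call. At 4 h 0 of 35 members were called by limma against 2.18% of all genes tested (1.32% higher, 0.863% lower), and 1 (Npc2, lower) had an unadjusted p under 0.05, as did 16.5% of all genes. At 1 day 0 were called against 1.18% (0.899% higher, 0.278% lower), and 2 (Gusb and Lgmn, both higher) had an unadjusted p under 0.05, against 8.58% of all genes. The step from 4 h to 1 day held 0 calls by limma against 1.23% (0.849% higher, 0.378% lower), with Gusb and Lamp2, 2 of the 35, higher at an unadjusted p under 0.05, against 1416 of the 14016 genes.

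Between 1 and 3 days 12 members rose and none fell, against 5.22% of all genes (5.07% higher, 0.15% lower). They were Gusb, Hexa, Naglu, Glb1, Man2b1, Fuca1, Gm2a, Npc2, Lipa, Lgmn, Grn and Laptm5. The steps ran from 0.61 for Gm2a and Glb1 to 1.95 ± 0.20 for Grn (limma adjusted p = 2.38e-05). Between 3 and 10 days 5 members rose further, against 2.02% of all genes (0.828% higher, 1.19% lower): Laptm5 (0.89 ± 0.18, limma adjusted p = 0.0133), Asah1 (0.84 ± 0.18, limma adjusted p = 0.0237), Man2b1 (0.76 ± 0.18, limma adjusted p = 0.0376), Hexa (0.75 ± 0.14, limma adjusted p = 0.00905) and Npc2 (0.74 ± 0.15, limma adjusted p = 0.0133). In all 5 genes the 10 day values lay above those of 3 days without overlap. Without 3 day library 2, Hexa alone was called in this step, and in a fit of only these 2 groups none of the 5 was. Of 14 alternatives, Man2b1 lost its call in 11, Asah1 in 7, Laptm5 and Npc2 in 3 each and Hexa in 1. Scaling libraries by their median ratio moved the median of all genes in this step from -0.15 to -0.02, that of the members from 0.18 to 0.33, and the calls of all genes from 116 higher and 167 lower to 151 and 120, and gave 6 members, all higher.

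Library 5 of the 10 day group bears on several late values. Relative to the mean of the other 10 day libraries it was at 2.04 times for Galns, 1.88 for Lamp2, 1.66 for Tpp1, 1.60 for Ppt1 and Laptm5, 1.59 for Asah1 and 1.53 for Lamp1, and at 0.459 times for Smpd1, 0.507 for Tfeb, 0.539 for Arsa and 0.616 for Naglu. Across 13980 genes its deviation from the other 10 day libraries went with low GC content of the transcript (r = -0.477, genes of 1 library and not replicates). Over the 35 members r was -0.391. For 10 day libraries 1 and 2 r over all these genes was 0.459 and 0.312. Each deviation is taken from the other libraries of the group, so these values are not independent. Transcript GC was 38.7% for Lamp2 and 43.5% for Asah1 against 55.7% for Smpd1 and 63.2% for Tfeb. Other members lay the other way round. Galns (55.6%) and Laptm5 (56.0%) were above the other 10 day libraries, and Lipa (42.2%, 0.786 times) and Scarb2 (46.3%, 0.714 times) were below them. The part of library quality or GC content in these values was not tested. Without this library Galns (limma adjusted p = 0.13), Galc (0.0845), Tpp1 (0.0743) and Ppt1 (0.0732) lost their call at 10 days, Scarb2 gained one (0.45, limma adjusted p = 0.0127), and Lamp1, Lamp2, Asah1 and Laptm5 kept theirs at 0.81, 0.81, 1.01 and 2.55.

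Contralateral left held no call against sham right (0 of 35 by limma, against 0.0285% of all genes, 0.0214% higher and 0.00713% lower), and 1 member, Scarb2, was lower at an unadjusted p under 0.05 (7.68% of all genes). Scarb2 was at 18, 18.1 and 21.1 FPKM against 22.2, 23.6 and 25.6 in sham. No member lay above sham in all 3 left libraries (3.60% of all genes) and 2 lay below, Scarb2 and Arsa (8.29%). Left libraries 1 and 3 differed from library 5 in many members, as in Gaa (15.3 and 14.7 against 34.8 FPKM), and without library 5 the fit called Gaa, Psap and Glb1 lower than sham. With contralateral left in place of sham right as the control, 18 members were called at 3 days and 25 at 10 days. The share of all genes called in that fit is not given here, so these counts are not read as a result about the members.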

How the data were processed

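Total RNA sequencing of 18 mouse brain punches gave FPKM values, which the authors made with Trimmomatic 0.36, HISAT2 2.1.0 and StringTie 1.3.4d on build GRCm38, per the submitters' processing notes. Settings, annotation, strand handling and filters are not given in the sources used here. A p-value and q-value per gene were deposited by the authors without naming the groups compared, and were used in no test. The copy used here (10485760 bytes) ends inside a line and is ordered by q-value. It holds 34921 complete entries, and 3101 further entries implied by the first p-value and q-value were not analysed here. The 14016 genes that reached 1 FPKM in a minimum of 3 libraries entered the test, on log2(FPKM + 1) with limma 3.58.1 in R 4.3.3 (1 mean per group, trend and robust moderation, Benjamini-Hochberg within a comparison), after a check on simulated data. Alternatives were the pseudocount (0.1), the filter, 2 scalings, the control group, a replicate block, fits of 2 groups and leaving out libraries. Coordinates and overlaps came from GENCODE M21 on GRCm38 and promoters from RefSeq. Groups follow the sample titles. The 35 members and all lists were chosen with earlier results of these data known, so no p is given for the list as a whole. The rule for named genes was to name every member, to print promoter windows of up to 6 members by length of match and then by the 3 day fold change, and to give other lists as counts with up to 3 examples. One such example is not reported here.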

Additional observations from a re-analysis of the deposited data

Results flagged for a closer look

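The effects of stroke relative to sham right differed between neighbouring times by the contrast of the times themselves (limma adjusted p under 0.05). From 1 to 3 days the log2 effect grew by 1.95 for Grn, 1.65 for Laptm5, 1.45 for Lgmn, 1.36 for Hexa, 1.22 for Gusb, 1.03 for Naglu and 0.95 for Npc2. It grew by 0.93 for Lipa, 0.87 for Man2b1, 0.67 for Fuca1, 0.61 for Glb1 and 0.61 for Gm2a. From 3 to 10 days it grew by a further 0.89 for Laptm5, 0.84 for Asah1, 0.76 for Man2b1, 0.75 for Hexa and 0.74 for Npc2. Of these step calls, that of Man2b1 was lost in 11 of 14 alternatives and that of Asah1 in 7. The contrast of 4 h with 1 day held no such member. Groups of 3 are too small for the search for single outlying libraries, which was not run.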

How the results depend on the processing

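Of 51 calls of a member in a comparison, 33 held in every alternative, 18 were lost in 1 or more, and none reversed (701 of 782 alternative values still called). Leaving out 1 library at a time gave 11 to 13 members at 3 days (14 with all), 17 to 20 at 10 days (20), 10 to 12 from 1 to 3 days (12), 1 to 6 from 3 to 10 days (5), 0 to 3 in contralateral left (0) and 0 to 0 at 4 h, at 1 day and from 4 h to 1 day. The lowest count from 3 to 10 days came without 3 day library 2, and without 3 day library 1 it was 3. Leaving out contralateral left 5 and 10 day 5 together gave 8 members in contralateral left, all lower, 2 lower at 4 h (Npc2 and Lamp2), 1 from 4 h to 1 day, 20 from 1 to 3 days, 20 at 3 days and 22 at 10 days. Fits of only the 2 groups compared gave 21 at 3 days and 14 at 10 days. From 3 to 10 days no filter on low values gave 3 and a fit of only these 2 groups gave 0. Replicate numbers are not stated to pair animals, and deviations of same-numbered libraries correlated at -0.227 to 0.409 (median 0.0374, 23 pairs). With the replicate number as a block 13 members were called at 3 days, 19 at 10 days, 9 from 1 to 3 days and 1 from 3 to 10 days. At 3 days the weakest calls were Gm2a (lost in 11 of 16 alternatives, limma adjusted p 0.00978 to 0.238), Gla (6, 0.00688 to 0.161) and Manba (4, 0.00144 to 0.119). At 10 days they were Galc (9, 0.00834 to 0.11), Ppt1 (7, 0.00193 to 0.17), Galns (6, 0.00417 to 0.13), Tpp1 (3, 0.00205 to 0.0743), Lamp2 (1, up to 0.0642) and Gla (1, up to 0.0525). From 3 to 10 days the weakest were Man2b1 (lost in 11 of 14, 0.014 to 0.29) and Asah1 (7, 0.0121 to 0.352). From 1 to 3 days the weakest was Glb1 (4 of 14, 1.87e-04 to 0.0878). The cause was not tested. Shares of all genes called in these alternative fits are not given here, so changes in the counts are not read as particular to the members. Read totals are not given, so no limit from depth was computed.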

Other observations

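By the authors' deposited table, a q-value under 0.05 was given to 15 of the 35 members, against 5.89% of the genes tested here, and the groups behind that q-value are not stated. Members whose level differed most between contralateral left library 5 and the mean of libraries 1 and 3 were Galns (2.70 times), Ctns (2.41), Gaa (2.32), Mcoln1 (2.20) and Cln3 (2.08).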
